A study of Mus musculus with 18 samples.

Results

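Luminal progenitor (LP) cells were compared with mature luminal (ML) cells of the mouse mammary gland, the pair of epithelial subpopulations that differed at the fewest probes in this series. The members are the arrays labelled with either subpopulation, 5 LP arrays and 5 ML arrays, which make up 10 of the 18 arrays. Every LP array has an ML partner from the same mouse pool. The other 8 arrays hold a MaSC-enriched (MS) fraction (5 arrays) and a stromal fraction (3 arrays), and enter here for the estimate of the spread and as a scale for marker genes. All cells came from the glands of female mice on a pure FVB/N background, with no treatment or transgene in any group. LP cells were sorted as CD29lo CD24+ CD61+ and ML cells as CD29lo CD24+ CD61-, after removal of cells that carry the endothelial marker CD31 or the blood markers CD45 and TER119. The MS fraction was CD29hi and CD61+, and the stromal fraction CD29lo CD24-. The age of the arrayed mice is not stated with the arrays (an example sort used young adult virgins), and the number of mice in a pool is worded ambiguously. A pool is the biological replicate, and tissue from several mice was combined before sorting, so that the spread between animals was not measured.

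The luminal layer of a mammary duct holds cells of several kinds. Progenitors with little or no receptor for ovarian steroids give rise, under prolactin, to the alveolar cells that make milk, and the ETS factor Elf5 and the receptor Kit are known for their part in that path. Mature ductal cells carry the receptors for estrogen and progesterone and answer these hormones with secreted signals such as RANKL (Tnfsf11) and Wnt4, which act on neighboring cells.

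The LP and ML arrays of pool 4 stood apart. Its LP array had the lowest quality weight of the 18 arrays (0.171, against 0.626 to 1.63 on the other 4 LP arrays) and the lowest share of probes above background (46.3%, against 51.3% to 55.6%). Within pools 1, 2, 3 and 5, between 1269 and 1692 genes lay over 2-fold apart between the LP and the ML array. In pool 4 there were 3196. The ML array of pool 4 also went against its label on the luminal progenitor markers (Kit, Elf5, Aldh1a3, Cd14, Cyp24a1, Lbp, Cxcr4, Itga2, Lmo4 and Itgb3), whose mean log2 intensity lay between 10.10 (pool 4) and 11.06 on the LP arrays, against 9.30, 9.08, 9.22, 10.27 and 9.49 on ML arrays 1 to 5. The LP array lay above its partner in every pool but pool 4. For the hormone-sensing genes (Pgr, Foxa1, Esr1, Cited1 and others), the means were 9.52, 9.59, 9.79, 9.07 and 9.28 on the LP arrays and 10.60, 10.85, 10.84, 9.80 and 10.26 on the ML arrays. Here the LP array was the lower in every pool, pool 4 included.

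**Figure D1:**
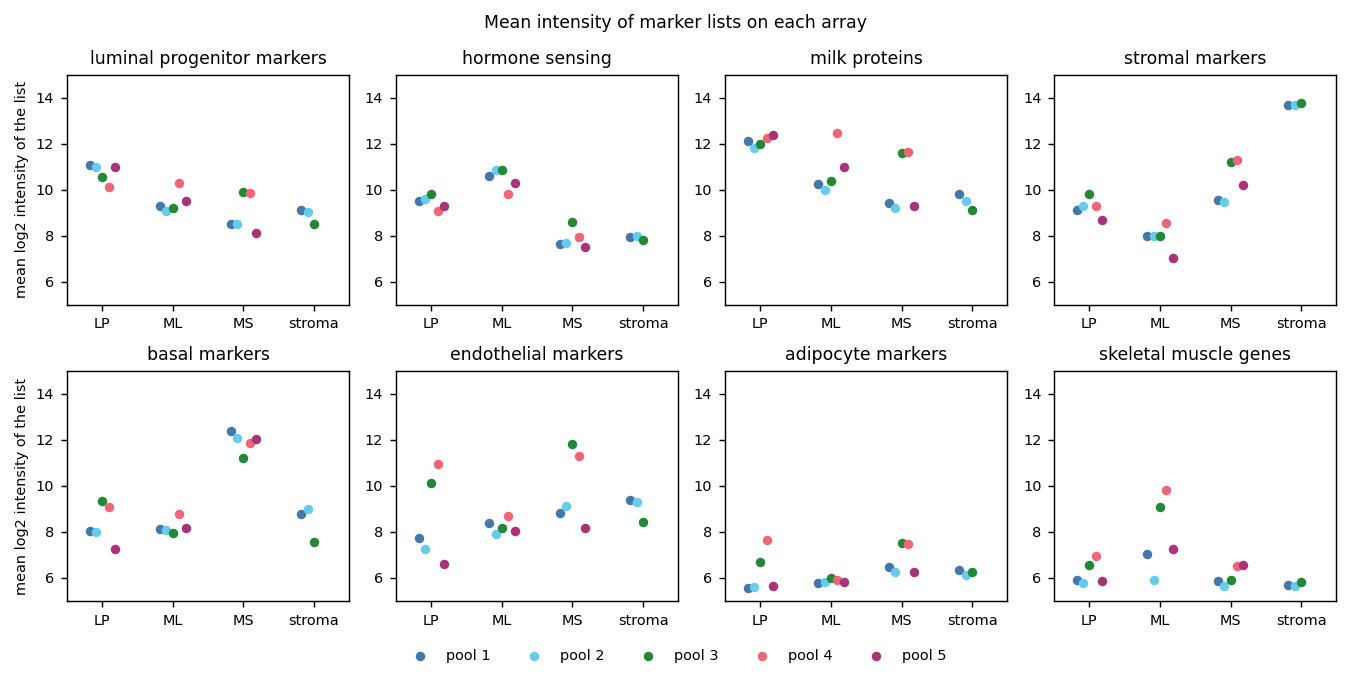
Mean log2 intensity of 8 gene lists on each of the 18 arrays, with the 4 subpopulations along the horizontal axis and 1 point per array, colored by mouse pool. The ML array of pool 4 lies among the LP arrays for the luminal progenitor markers (10.27) and above all of them for the milk proteins (12.44), the LP arrays of pools 3 and 4 are high in endothelial markers (10.11 and 10.96), and the ML arrays of pools 3 and 4 are high in skeletal muscle genes (9.10 and 9.81).

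Other cell types were also traced. The mean of 12 endothelial markers was 7.73, 7.26, 10.11, 10.96 and 6.62 on LP arrays 1 to 5, against 7.93 to 8.70 on the ML arrays, so that LP arrays 3 and 4 were the high ones. The adipocyte markers followed with 6.69 and 7.65 on LP arrays 3 and 4, against 5.56 to 5.65 on the other LP arrays and 5.80 to 5.99 on the ML arrays. Adipoq, which encodes the fat cell hormone adiponectin, read 7.86 and 9.14 on these LP arrays and at most 5.15 on the other 3. Of the blood markers, Ptprc (CD45) lay at 4.85 to 5.51 on the LP arrays and 4.59 to 5.50 on the ML arrays, around the background of 5.10 to 5.44. Others were well above it. The hemoglobin gene Hba-a1 read 10.04, 11.03, 12.62, 11.62 and 10.65 on LP arrays 1 to 5, against 11.57, 12.87, 12.80, 12.20 and 12.56 on ML arrays 1 to 5, and was not called (-1.31 ± 0.53, adjusted p = 0.072), although LP was the lower in every pool. Lyz2, the lysozyme of macrophages, read 5.31 to 10.36 in LP and 5.79 to 9.67 in ML, highest in pool 3 in both populations. Pools 1, 2 and 3 were hybridized in one batch and pools 4 and 5 in another, and each batch holds both subpopulations. The LP and ML arrays of pool 2 lay on different BeadChips, and those of every other pool on the same one. Because the pool 4 arrays stood apart, the counts over all probes are also given without pool 4, as are the values of genes whose call it changed.

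A gene was called where its adjusted p from the limma fit was under 0.05 and its fold over 1.5. Calls of that size leaned to genes higher in LP, while at an adjusted p under 0.05 with any fold 2348 probes were higher and 2602 lower, and 7381 of 16319 genes had a difference above 0. Of 35585 probes tested, 1828 were called higher in LP (5.14%) and 1390 lower in LP (3.91%). Per gene, by its brightest probe, 1047 of 16319 were higher (6.42%) and 762 lower (4.67%). Of the genes higher in LP, 510 lay between 2- and 4-fold, 88 between 4- and 8-fold and 11 over 8-fold. Of those lower in LP, 211 lay between 2- and 4-fold, 7 between 4- and 8-fold and none over 8-fold. The median log2 difference of all genes was -0.03. Of the called probes, 56.8% were higher in LP. Under another scaling of the arrays (cyclic loess) this share was 68.1%, with 2100 higher and 983 lower. Every LP array lay above every ML array for 285 genes (1.75% of those tested), and below every ML array for 319 (1.95%).

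**Figure D2:**
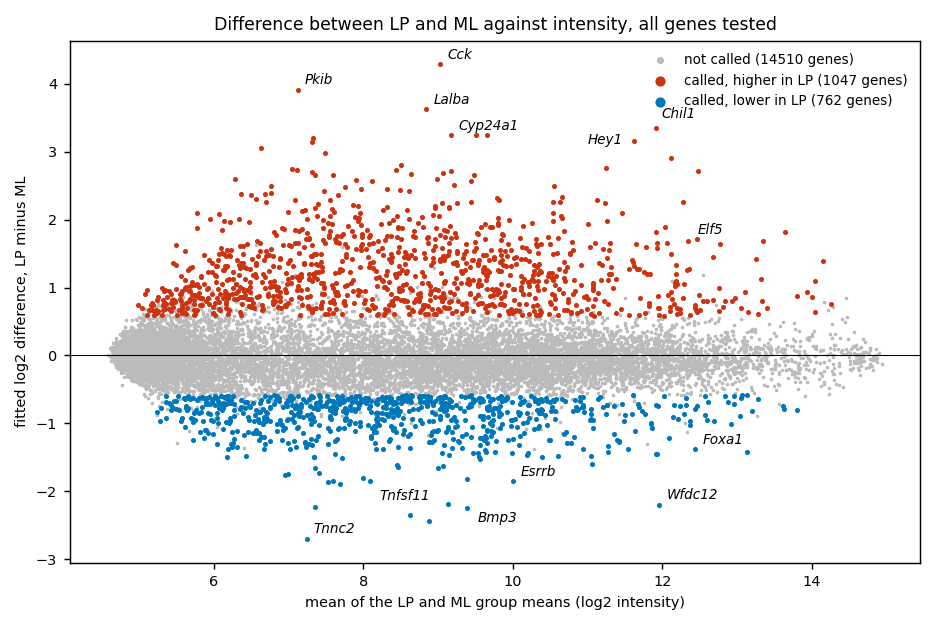
Fitted log2 difference, LP minus ML, of each of the 16319 genes against the mean of its LP and ML log2 intensities. Red points are the 1047 genes called higher in LP and blue points the 762 called lower. The points above 0 reach 4.29 (Cck) and those below 0 reach -2.70 (Tnnc2).

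The other pairs of subpopulations differed at more probes under the same thresholds. MS cells against LP cells gave 6474 called probes (18.2% of those tested) and MS cells against ML cells 8345 (23.5%), while LP against ML gave 3218 (9.04%). The counts share arrays and are given side by side. Against the stromal arrays, of which there were 3, the counts were 11002 for LP and 11769 for ML.

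Most of the calls were found again in a pool that had no part in making them, except in pool 4. Probes called higher in LP without a given pool were higher in LP in that pool for 97.2%, 96.1%, 93.1%, 57.0% and 93.4% of them in pools 1 to 5. For probes called lower in LP, the shares that were lower in the pool left out were 95.3%, 86.1%, 93.0%, 63.9% and 92.8%. Over all probes, 44.9% to 47.7% were higher in LP within a pool. Without pool 4 there were 1972 probes higher and 1504 lower in LP, and 3080 of the 3476 were also called with it. Genes over 2-fold higher in LP in each of the 5 pools numbered 102, and 25 were over 2-fold lower in each. Leaving pool 4 aside, 344 were over 2-fold higher and 76 over 2-fold lower in each of the remaining 4 pools.

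**Figure D3:**
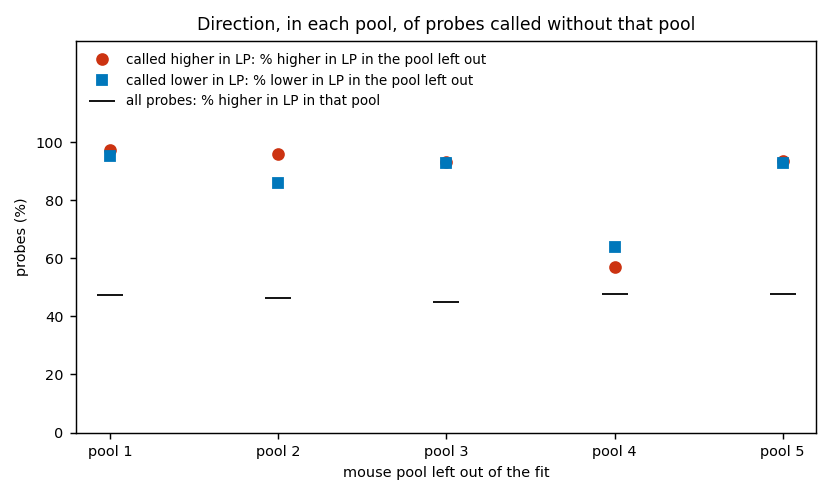
Share of probes (%) that kept their direction in a mouse pool whose LP and ML arrays were left out of the fit that called them, for probes called higher in LP (red circles) and lower in LP (blue squares), with the share of all probes higher in LP in that pool (black dashes). Pools 1, 2, 3 and 5 lie between 86.1% and 97.2%, and pool 4 at 57.0% and 63.9%.

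The genes of the antigens used in the sort did not separate LP from ML on the arrays. CD61 is the product of Itgb3, the only antigen on which the 2 gates differ. Its probe read 5.77, 6.12, 5.66, 4.86 and 5.85 on LP arrays 1 to 5 and 5.33, 5.84, 5.41, 5.17 and 5.84 on ML arrays 1 to 5, near background on all 10 arrays (log2 difference 0.27 ± 0.16 (SE), adjusted p = 0.26). CD24 (Cd24a) read 7.15 to 9.12 in LP and 7.57 to 9.05 in ML (-0.10 ± 0.23, adjusted p = 0.83), and CD29 (Itgb1) 7.78 to 8.44 in LP and 7.73 to 8.64 in ML (-0.05 ± 0.19, adjusted p = 0.91). The adhesion molecule Epcam, which marks luminal epithelium, had a difference of 0.00 ± 0.31 (adjusted p = 1.00), with both groups above the stromal mean of 5.61. Luminal keratins marked both populations as well. Krt8 read 14.4 to 14.9 in LP and 14.8 to 14.9 in ML, against a mean of 11.3 in stroma, and Krt18 had a difference of -0.26 ± 0.40 (adjusted p = 0.71). Of 12 keratins of simple and other epithelia tested, 1 was called (8.33%, against 11.1% of all genes in either direction): Krt7, at 11.2 to 11.7 in LP and 11.8 to 12.7 in ML, was 2.01-fold lower in LP (-1.01 ± 0.28, adjusted p = 0.0092) with no overlap between the arrays.

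Of the 10 luminal progenitor markers tested, 9 were called higher in LP (90%, against 6.42% of all genes) and none lower. The median log2 difference was 1.59 (all genes -0.03). The list was written with earlier results of these arrays known, and 5 of the 9 were higher in ML within pool 4. Cyp24a1, the enzyme that inactivates vitamin D, read 11.13, 10.45, 10.18, 10.68 and 10.94 on LP arrays 1 to 5, against 7.67, 6.96, 7.13, 8.96 and 7.66 on ML arrays 1 to 5. The arrays did not overlap, and the difference was 9.49-fold (log2 difference 3.25 ± 0.43, adjusted p = 6.69e-06). The ETS factor Elf5 read 13.38, 13.51, 13.01, 12.22 and 12.81 in LP and 11.19, 11.27, 11.76, 13.18 and 11.14 in ML. ML array 4 thus read higher than LP arrays 3, 4 and 5. Elf5 was 3.22-fold higher in LP (1.69 ± 0.51, adjusted p = 0.016), and 1.89 on the log2 scale without pool 4 (adjusted p = 0.0099).

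Kit, the receptor tyrosine kinase for stem cell factor, showed the same crossing. It read 13.32, 12.86, 12.63, 11.82 and 12.70 on LP arrays 1 to 5 and 11.56, 11.04, 11.31, 12.70 and 11.27 on ML arrays 1 to 5. The difference was 2.81-fold (1.49 ± 0.48, adjusted p = 0.023), and 1.67 without pool 4 (adjusted p = 0.016). Leaving out single arrays ended the call of Kit for each of LP arrays 1 and 2 and ML arrays 1, 2 and 3 (highest adjusted p = 0.10), and that of Elf5 for each of LP and ML arrays 1 and 2 (highest 0.065). All of these come from pools other than pool 4. When all arrays were weighted equally, 4 of the 9 calls in this list ended: those of Kit (1.09, adjusted p = 0.18), Elf5 (1.28, adjusted p = 0.15), Aldh1a3 (0.72, adjusted p = 0.14) and Cd14 (1.33, adjusted p = 0.061).

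Among the remaining markers, Lbp and Cd14, both of which bind bacterial lipopolysaccharide, were higher in LP by 2.26 ± 0.37 (adjusted p = 9.05e-05) and 1.68 ± 0.43 (adjusted p = 0.0055). The chemokine receptor Cxcr4 read 8.42 to 10.41 in LP and 7.42 to 8.35 in ML, without overlap (1.84 ± 0.30, adjusted p = 7.02e-05). Lmo4, a LIM-domain regulator of mammary epithelium, was 1.74-fold higher (adjusted p = 0.00062). Its LP and ML arrays of pool 4 read 13.87 and 13.83. Aldh1a3, a retinaldehyde dehydrogenase, read 10.41, 10.04, 9.68, 9.89 and 10.86 in LP and 9.29, 8.73, 8.89, 9.81 and 10.54 in ML, and its call (0.94 ± 0.30, adjusted p = 0.021) ended without any of LP arrays 1 and 5 and ML arrays 2 and 3 (highest adjusted p = 0.14). Aldh5a1, another aldehyde dehydrogenase, was not called (-0.35 ± 0.21, adjusted p = 0.26). The stromal mean of Aldh1a3 was 11.4, above its LP mean of 10.2, and that of Lbp was 11.6, level with its LP mean of 11.6. For Cd14, Cxcr4 and Lmo4 the stromal mean lay below the LP mean.

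**Figure D4:**
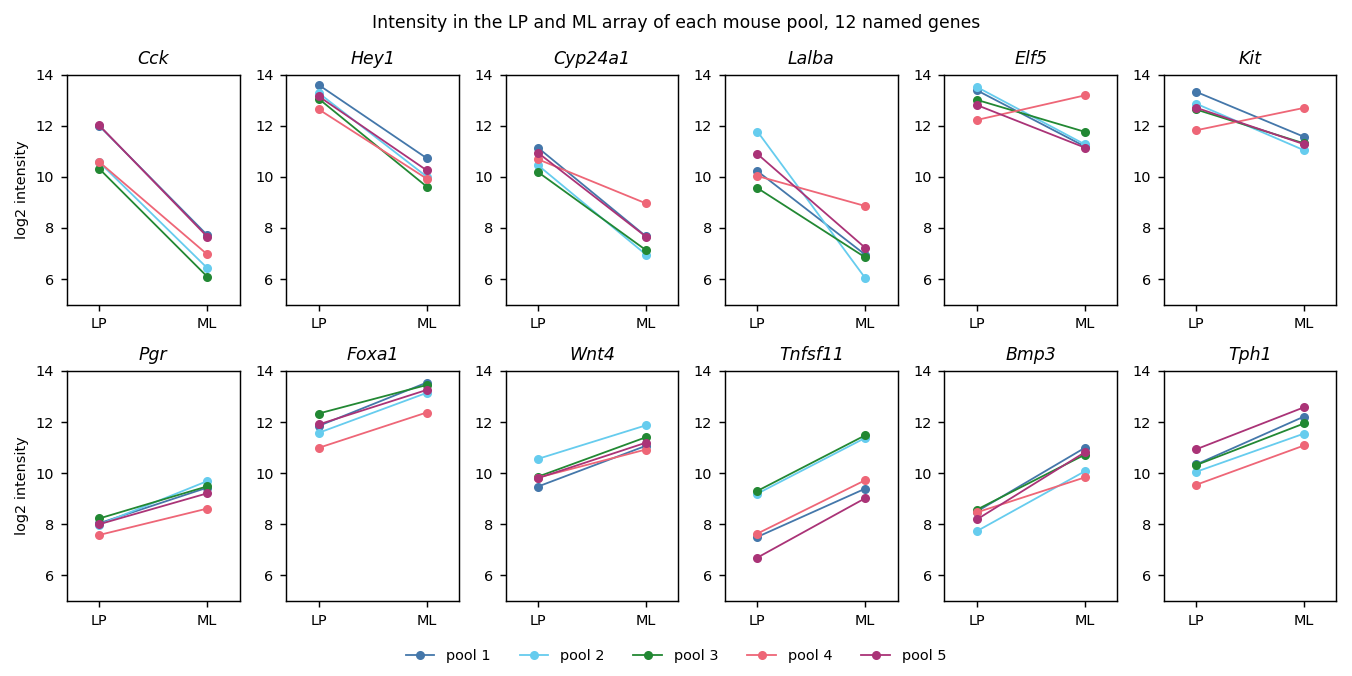
Log2 intensity of 12 named genes on the LP array (left) and the ML array (right) of each mouse pool, joined by a line colored by pool. The upper row holds genes called higher in LP and the lower row genes called lower in LP. In pool 4 the lines of Elf5 (12.22 in LP and 13.18 in ML) and Kit (11.82 in LP and 12.70 in ML) run against those of the other pools, while those of Cck, Hey1, Pgr, Foxa1, Wnt4 and Tnfsf11 do not.

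Genes of milk proteins and of milk fat secretion were higher in LP for 7 of the 12 tested (58.3%, against 6.42% of all genes). None was lower, and the median log2 difference was 1.55. The list's mean was 12.09, 11.81, 11.99, 12.23 and 12.35 on LP arrays 1 to 5, against 10.23, 9.97, 10.36, 12.44 and 10.96 on ML arrays 1 to 5. ML array 4 was thus the highest of all 10. Lalba, the regulatory subunit of lactose synthase, read 10.22, 11.77, 9.56, 10.03 and 10.89 in LP and 6.95, 6.03, 6.84, 8.85 and 7.22 in ML. It was 12.3-fold higher in LP (3.62 ± 0.55, adjusted p = 3.94e-05) and the arrays did not overlap. Btn1a1, which coats the milk fat globule, read 13.06 to 14.26 in LP and 9.98 to 13.08 in ML (2.71 ± 0.62, adjusted p = 0.0021). Xdh, its partner in the globule membrane, was 4.79-fold higher in LP (2.26 ± 0.40, adjusted p = 0.00018), with 11.74 on ML array 4, against 8.75 to 9.48 on the other 4 ML arrays. The stromal mean of Xdh was 12.6, above its LP mean of 11.4, while those of Lalba and Btn1a1 lay below their LP means.

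Wap, the whey acidic protein, read 9.73, 8.10, 10.30, 11.03 and 11.53 in LP and 6.52, 5.44, 7.38, 12.59 and 7.96 in ML. ML array 4 held the highest value of the 10. The difference was 6.46-fold (2.69 ± 0.81, adjusted p = 0.016), and 3.15 on the log2 scale without pool 4 (adjusted p = 0.0028). The call ended without LP array 1 or ML array 2 (highest adjusted p = 0.099) and without array weights (adjusted p = 0.13).

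The caseins that are most abundant in milk lay near the top of the intensity scale in both populations. Csn1s1 read 14.3 to 14.8 in LP and 13.3 to 14.6 in ML (0.71 ± 0.38, adjusted p = 0.20), and Csn2 read 14.6 to 14.8 in LP and 12.6 to 14.6 in ML (1.40 ± 0.48, adjusted p = 0.032). The stromal means were 11.8 and 11.4. Glycam1, which encodes another secreted protein of milk, read 8.14 to 10.47 in LP and 8.31 to 13.24 in ML (0.63 ± 0.59, adjusted p = 0.51). These 3 genes were named after their values were seen. They are the 3 of 8 milk genes with a promoter in the table used whose 250 bases before the gene start hold the letters TTCNNNGAA, the palindrome bound by STAT factors such as the prolactin-activated STAT5, here searched on both strands. The same letters lie upstream of 7.70% of the genes tested, 7.51% of those higher in LP and 6.67% of those lower in LP, and upstream of 2 of 13 genes of the hormone-sensing list (15.4%), Esr1 and Prlr. A match is a string of letters and not a measured binding site. The RefSeq sequences (GRCm38.p6, 5′ to 3′ toward the gene, matched letters in capitals) show where the 3 matches lie. The matches share the set letters because the genes were chosen for them, and their free bases differ (TTA, TTG and CCA). The matches start 100, 93 and 145 bases before the gene in Csn1s1 (chr5:87665958-87666207, plus strand), Csn2 (chr5:87699426-87699675, minus strand) and Glycam1 (chr15:103565082-103565331, minus strand).
Csn1s1: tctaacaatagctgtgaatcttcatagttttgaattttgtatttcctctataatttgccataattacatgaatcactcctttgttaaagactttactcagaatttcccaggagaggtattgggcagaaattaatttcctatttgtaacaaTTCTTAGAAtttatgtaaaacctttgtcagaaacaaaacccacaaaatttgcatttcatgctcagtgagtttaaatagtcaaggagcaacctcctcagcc
Csn2: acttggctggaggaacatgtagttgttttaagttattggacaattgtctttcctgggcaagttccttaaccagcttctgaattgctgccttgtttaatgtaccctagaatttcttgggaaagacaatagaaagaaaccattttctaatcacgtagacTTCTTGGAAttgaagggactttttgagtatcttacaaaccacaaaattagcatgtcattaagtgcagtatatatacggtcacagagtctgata
Glycam1: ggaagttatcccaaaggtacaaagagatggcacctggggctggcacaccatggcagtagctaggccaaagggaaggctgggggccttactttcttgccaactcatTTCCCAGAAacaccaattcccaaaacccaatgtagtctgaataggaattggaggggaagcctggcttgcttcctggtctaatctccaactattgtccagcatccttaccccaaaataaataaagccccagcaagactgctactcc

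Hormone-sensing genes ran the other way. Of the 12 tested, 8 were called lower in LP (66.7%, against 4.67% of all genes) and none higher. The median log2 difference was -1.20, and 7 of the 8 were lower in LP in pool 4 too. Pgr, the progesterone receptor, read 7.58 to 8.23 on the LP arrays, against 9.43, 9.69, 9.48, 8.61 and 9.21 on ML arrays 1 to 5. The arrays did not overlap, and Pgr was 2.58-fold lower in LP (-1.37 ± 0.19, adjusted p = 1.61e-05). Foxa1, a forkhead factor that opens chromatin for the estrogen receptor, read 11.85, 11.58, 12.33, 10.99 and 11.91 in LP and 13.54, 13.14, 13.45, 12.37 and 13.26 in ML. LP lay below ML in each pool by 1.11 to 1.69, and the difference was 2.61-fold (-1.38 ± 0.40, adjusted p = 0.013). Without LP array 1 it was -1.28 (adjusted p = 0.053).

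The estrogen receptor itself did not pass the test. Esr1 read 10.81, 10.61, 10.39, 10.06 and 9.98 in LP and 11.39, 11.31, 11.43, 9.67 and 10.61 in ML (-0.61 ± 0.25, adjusted p = 0.081). In pool 4 the LP array was the higher, and without that pool Esr1 was called (-0.73, adjusted p = 0.017). Cited1, a coactivator of the estrogen receptor, was 2.74-fold lower in LP (-1.46 ± 0.33, adjusted p = 0.0019), with 11.52 on ML array 4, against 12.88 to 13.02 on the other ML arrays. The T-box factor Tbx3 was lower by 1.24 ± 0.19 (adjusted p = 4.93e-05), although within pool 4 LP read 11.11 and ML 10.99. The transcription factor Myb read 4.96 to 6.80 in LP and 5.58 to 8.41 in ML (-1.17 ± 0.33, adjusted p = 0.010). Its call ended without ML array 2 (-0.70, adjusted p = 0.11).

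The secreted signals of this list were also lower in LP. Tnfsf11 (RANKL) read 7.51, 9.20, 9.31, 7.64 and 6.70 in LP and 9.40, 11.38, 11.48, 9.73 and 9.02 in ML. Levels varied by over 2 log2 units between pools within each population, so that the groups overlapped, yet LP was lower by 1.89 to 2.33 in each pool (4.54-fold, -2.18 ± 0.41, adjusted p = 0.00038). Its receptor RANK, encoded by Tnfrsf11a, ran opposite to it, at 8.15 to 9.96 in LP and 6.65 to 9.08 in ML (3.20-fold higher in LP, 1.68 ± 0.25, adjusted p = 3.42e-05). Wnt4 read 9.48, 10.56, 9.86, 9.83 and 9.81 in LP and 11.07, 11.87, 11.41, 10.93 and 11.19 in ML, without overlap (2.79-fold lower in LP, adjusted p = 0.00013). Prlr, Areg and Ly6a, also known for ML or LP cells, were not analysed here.

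The 15 largest rises in LP among genes that moved the same way in all 5 pools held hormones, transcription factors, transporters and secreted proteins. Cck, the peptide hormone cholecystokinin, read 11.99, 10.56, 10.31, 10.58 and 12.01 on LP arrays 1 to 5, against 7.72, 6.43, 6.09, 6.96 and 7.66 on ML arrays 1 to 5. The gap was at least 3.61 in each pool, and the fitted difference 19.5-fold (4.29 ± 0.47, adjusted p = 6.55e-07). Pkib, an inhibitor of protein kinase A, read 7.99 to 9.82 in LP, and in ML lay near background (4.88 to 5.14) on 4 arrays and at 6.05 on ML array 5 (3.91 ± 0.36, adjusted p = 6.77e-08). Of the 5 kept probes of Pkib, 3 were called, and its estimate ranged from 1.33 to 4.21 over the settings run. Chil1, a chitinase-like secreted glycoprotein, was 10.2-fold higher in LP (12.62 to 14.24 in LP and 9.72 to 11.03 in ML).

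Hey1, a transcriptional repressor switched on by Notch signaling, read 13.59, 13.28, 13.05, 12.64 and 13.15 in LP and 10.73, 10.01, 9.62, 9.93 and 10.26 in ML, and was 8.95-fold higher in LP (3.16 ± 0.32, adjusted p = 2.04e-07). The zinc finger factor Zic4 lay between 4.90 and 5.42 on all ML arrays and between 7.05 and 9.18 on the LP arrays (3.06 ± 0.28, adjusted p = 7.42e-08). Of the 3 kept probes of Zic4, 1 was called, and its estimate ranged from 1.05 to 3.51 over the settings run. The photoreceptor cadherin Cdhr1 (3.25 ± 0.28), the receptor phosphatase Ptprz1 (3.21 ± 0.35), the dicarboxylate transporter Slc13a2 (2.99 ± 0.33), the chloride channel protein Clic6 (2.91 ± 0.45) and the carbonyl reductase Cbr2 (2.76 ± 0.26) each showed no overlap between LP and ML arrays. So did Bglap (2.75 ± 0.35), which encodes osteocalcin and has near-identical neighbors that its probe may also detect, and BC016548 (2.74 ± 0.31). Ncald, a neuronal calcium sensor, was 6.96-fold higher, but overlapped through ML array 4 (8.99, against 6.22 to 7.19 on the other ML arrays). Cck, Chil1, Cdhr1 and Cbr2 were also called in the batch of pools 4 and 5 alone, which has 2 arrays a group.

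The 15 largest falls in LP were smaller, and 6 of them were genes of skeletal muscle fibers: Tnnc2, Myl1, Acta1, Pvalb, Mylpf and Atp2a1. Tnnc2, a troponin of fast muscle, read 4.98, 5.29, 6.79, 6.56 and 4.77 in LP and 7.49, 5.57, 10.81, 11.8 and 8.35 in ML (-2.70 ± 0.73, adjusted p = 0.0079). ML arrays 3 and 4 were the high ones, and ML array 2 lay close to the LP arrays. Over 15 muscle genes, a list drawn up after these values were seen, the mean was 5.93, 5.78, 6.58, 6.96 and 5.87 on LP arrays 1 to 5, against 7.05, 5.92, 9.10, 9.81 and 7.26 on ML arrays 1 to 5. Of these genes, 8 were called lower in LP (53.3%, against 4.67% of all genes). Because the list followed those values, this share gives no separate support. The MS arrays lay between 5.66 and 6.56, and the stromal arrays between 5.66 and 5.83. Without pools 3 and 4, Tnnc2 still differed by -2.01 (adjusted p = 0.0012). The call of Pvalb ended without pool 4 (adjusted p = 0.081) and without any of LP arrays 1, 2 and 5 and ML arrays 3, 4 and 5, that of Myl1 without LP array 1 (adjusted p = 0.088), and 5 of the 6 were not called in the fit of the 10 LP and ML arrays alone or of pools 1 to 3 alone, Mylpf being the exception. The part of muscle tissue in these values was not tested.

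The other 9 largest falls were not muscle genes. Bmp3, a member of the bone morphogenetic protein family that opposes other members, read 8.50, 7.73, 8.57, 8.47 and 8.19 on LP arrays 1 to 5, against 10.99, 10.07, 10.72, 9.83 and 10.81 on ML arrays 1 to 5. It was 4.74-fold lower in LP (-2.25 ± 0.23, adjusted p = 2.52e-07) without overlap. The orphan nuclear receptor Esrrb read 8.21 to 10.08 in LP and 10.27 to 11.66 in ML (3.62-fold lower, adjusted p = 0.00044). Slc16a5, a monocarboxylate transporter, was 3.61-fold lower (adjusted p = 1.07e-07), and Defb45, a beta-defensin, 3.33-fold lower (adjusted p = 1.54e-06), both without overlap.

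Wfdc12, a secreted protease inhibitor of the WAP family, read 9.12, 10.02, 12.46, 12.14 and 11.48 in LP and 12.02, 12.48, 13.94, 12.29 and 13.62 in ML (-2.20 ± 0.53, adjusted p = 0.0035), and without LP array 1 the difference was -1.59 (adjusted p = 0.057). Dpep2, a membrane dipeptidase, read 5.07 to 7.99 in LP and 6.92 to 9.22 in ML, and was lower in LP in every pool (-1.76 ± 0.35, adjusted p = 0.00066). Pcdhac2, a protocadherin, and 8430426J06Rik were 3.14-fold and 3.08-fold lower without overlap. Tnfsf11, described above, completes the group.

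Genes of fibroblasts and their matrix were higher in LP for 12 of the 13 tested (92.3%, against 6.42% of all genes). None was lower by its brightest probe, and the median log2 difference was 1.41. The mean of this list was 9.11, 9.29, 9.80, 9.28 and 8.66 on the LP arrays, against 7.96, 7.98, 7.99, 8.57 and 7.04 on the ML arrays and 13.7 to 13.8 on the stromal arrays. Every LP array lay above every ML array, and far below the stromal arrays. Pdgfra, a growth factor receptor of fibroblasts, read 9.62, 9.61, 9.54, 9.83 and 9.10 in LP and 7.42, 7.09, 7.08, 7.96 and 5.84 in ML (5.49-fold higher in LP, 2.46 ± 0.34, adjusted p = 1.16e-05), against a stromal mean of 13.9. The matrix protein genes Dpt (2.67 ± 0.41), Lum (1.78 ± 0.37) and Col3a1 (1.72 ± 0.41) were also called higher. In pool 4, Dpt read 7.80 in LP and 8.41 in ML. Decorin (Dcn), the remaining member, was at 13.2 to 13.8 in LP and 13.4 to 14.3 in ML (-0.31 ± 0.20, adjusted p = 0.28). Of the 4 kept probes of Dcn, 1 was called lower in LP. Without pool 4, 11 of the 13 were called, and without pools 3 and 4, 8. Whether these genes were transcribed in LP cells or came with a share of stromal cells in the gate was not tested, and in sorted bulk RNA fewer cells of a type and less RNA per cell cannot be told apart.

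Basal cell markers did not separate LP from ML as a group. Of 15 tested, 1 was called, higher in LP (6.67%, against 6.42% of all genes), with a median difference of 0.01. Their mean was 7.24 to 9.34 on the LP arrays and 7.96 to 8.77 on the ML arrays, against 11.2 to 12.4 on the MS arrays. LP arrays 3 and 4, at 9.34 and 9.09, were the highest of the 10. The called member, Snai2, a repressor known from epithelial to mesenchymal transition, read 6.07, 6.27, 7.98, 8.48 and 5.16 in LP and 5.26, 5.69, 5.77, 6.42 and 5.78 in ML (0.92 ± 0.34, adjusted p = 0.047). Its call ended without pool 4 (adjusted p = 0.057), and without any of LP arrays 2, 3 and 4 and ML arrays 1, 2 and 3 (highest adjusted p = 0.29). None of 12 endothelial markers and none of 10 blood markers was called by limma (background 6.42% higher and 4.67% lower). Of 7 adipocyte markers, 1 was lower in LP: Lipe, the hormone-sensitive lipase (-0.91 ± 0.22, adjusted p = 0.0035). Notch4, a receptor of endothelial cells among others, read 9.66 and 11.46 on LP arrays 3 and 4, 7.29 to 7.70 on the other LP arrays and 7.64 to 8.77 in ML (0.29 ± 0.47, adjusted p = 0.73).

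Genes of innate defence were higher in LP for 9 of 18 (50%, against 6.42% of all genes), with none lower. The median log2 difference was 0.82, and 6 of the 9 were higher in ML within pool 4. Saa1, an acute phase protein, read 10.51, 9.38, 11.03, 10.10 and 13.64 in LP and 6.59, 6.42, 7.21, 12.37 and 9.33 in ML (9.50-fold higher in LP, 3.25 ± 0.68, adjusted p = 0.0010). ML array 4 read above its LP partner by 2.26, while the LP array was higher by 2.97 to 4.31 in the other pools. The antimicrobial protein S100a8 was 5.68-fold higher (2.51 ± 0.67, adjusted p = 0.0074), and its call ended without LP array 1 or ML array 2 (highest adjusted p = 0.060) and without array weights (adjusted p = 0.10). Saa2, a near-identical copy that the Saa1 probe may also detect, had a dim probe of its own (0.51 ± 0.30, adjusted p = 0.24). The Toll-like receptors Tlr2 (1.56 ± 0.27) and Tlr4 (1.01 ± 0.28), which sense bacterial products, and the antibody transporter Pigr (1.62 ± 0.43) were also called higher.

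Of 14 chemokine genes, 5 were higher in LP and 1 lower (35.7% and 7.14%, against 6.42% and 4.67% of all genes). Cxcl16, a chemokine that is also a membrane scavenger receptor, read 10.37 to 11.64 in LP and 9.38 to 10.83 in ML, and was higher in LP in each pool (1.12 ± 0.23, adjusted p = 0.00092). Cxcl2 (1.24 ± 0.42, adjusted p = 0.033) and Cxcl15 (-1.22 ± 0.40, adjusted p = 0.025) each moved the same way in all 5 pools, but each call ended without any of 5 single arrays. For Cxcl2 these were LP arrays 1 and 5 and ML arrays 1, 2 and 3 (highest adjusted p = 0.19), and for Cxcl15 LP arrays 1 and 2 and ML arrays 1, 2 and 3 (highest 0.086). Among 14 interferon response genes, Ifit2 (1.19 ± 0.19, adjusted p = 5.13e-05) and Irf7 (0.88 ± 0.31, adjusted p = 0.041) were higher in LP and Stat2 was lower (-0.77 ± 0.15, adjusted p = 0.00037). The shares were 14.3% higher and 7.14% lower, against 6.42% and 4.67% of all genes. Stat2, a transducer of interferon signals, averaged 7.72 ± 0.18 in LP and 8.43 ± 0.32 in ML (SD, n = 5 each). Irf7 lost its call without any of 7 single arrays, all but LP arrays 3 and 4 and ML array 4 (highest adjusted p = 0.18). None of 15 antigen presentation genes was called by limma.

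Notch pathway genes were called in LP for 5 of 23, 4 higher and 1 lower (17.4% and 4.35%, against 6.42% and 4.67% of all genes). Those higher were a receptor, a coactivator and 2 targets. Notch1 read 11.98, 11.65, 11.78, 11.70 and 10.79 in LP and 11.07, 10.49, 10.71, 10.72 and 9.89 in ML, and LP was higher by 0.90 to 1.16 in each pool (2.06-fold, adjusted p = 0.0038). Maml2, a coactivator of the Notch transcription complex, was 2.55-fold higher without overlap (adjusted p = 1.18e-05). Hey2, a relative of Hey1, read 5.16 to 7.55 in LP and 4.64 to 5.02 in ML, where none of the 5 arrays was above background, so that it was at least 2.79-fold higher in LP (adjusted p = 1.88e-05). Numb, which opposes Notch, was the member lower in LP (-0.78 ± 0.19, adjusted p = 0.0041). No ligand was called. Notch1, Maml2 and Hey1 were higher in LP in pool 4 as well, while Hey2 was below background on both arrays of that pool.

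Wnt pathway genes went both ways: 7 of 32 were higher in LP and 4 lower (21.9% and 12.5%, against 6.42% and 4.67% of all genes), and 5 of the 7 were lower in LP within pool 4. Among the ligands, Wnt5b read 11.35, 11.71, 10.74, 9.86 and 10.70 in LP and 9.33, 9.02, 8.88, 10.65 and 9.16 in ML (3.74-fold higher in LP, 1.90 ± 0.24, adjusted p = 3.53e-06), with pool 4 in the opposite direction. Wnt2 read 6.56 to 7.93 in LP and 4.79 to 5.64 in ML (1.97 ± 0.27, adjusted p = 1.11e-05), against a stromal mean of 12.4. Wnt4 (above), Wnt5a (-0.76 ± 0.27, adjusted p = 0.039) and Wnt7b (-0.82 ± 0.29, adjusted p = 0.041) were lower in LP. Wnt5a was lower in every pool and Wnt7b in every pool but pool 4, where LP read 11.10 and ML 9.97. Both calls were close to the threshold: that of Wnt5a ended without any of LP arrays 1, 2 and 5 and ML arrays 1, 3 and 5 (highest adjusted p = 0.13), and that of Wnt7b without any of LP arrays 1, 2, 3 and 5 and ML arrays 1, 2 and 5 (highest 0.14).

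Among receptors and inhibitors of the pathway, Lgr6, a receptor for R-spondins, read 8.07 to 8.70 in LP and 6.29 to 8.80 in ML (1.66 ± 0.30, adjusted p = 0.00026), with the 8.80 on ML array 4 and the other ML arrays at 6.29 to 6.95. Sfrp2, a secreted Wnt antagonist, read 9.66, 9.39, 8.74, 8.43 and 9.46 in LP and 7.10, 7.12, 6.39, 6.72 and 6.59 in ML (5.45-fold higher in LP, 2.45 ± 0.27, adjusted p = 6.00e-07) and did not overlap. Its stromal mean was 12.6.

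Receptors of the EGF family also split. Of 11 ligands, receptors and feedback genes, 4 were higher in LP and 2 lower (36.4% and 18.2%, against 6.42% and 4.67% of all genes). Egfr read 10.75, 10.47, 10.36, 11.12 and 10.83 in LP and 8.83, 8.51, 8.02, 9.66 and 9.45 in ML, 3.78-fold higher in LP without overlap (1.92 ± 0.20, adjusted p = 3.83e-07), against a stromal mean of 13.0. Erbb2 read 8.84, 9.51, 9.38, 10.23 and 9.02 in LP and 10.11, 9.60, 10.26, 9.92 and 9.95 in ML (1.67-fold lower in LP, adjusted p = 0.0046). In pool 4 Erbb2 was higher in LP, and without LP array 1 its fold fell below the threshold (-0.58, adjusted p = 0.042). Without array weights the adjusted p was 0.080. The ligand Hbegf was higher in LP (1.10 ± 0.31, adjusted p = 0.0098), with a call that ended without LP array 1 or ML array 3 (highest adjusted p = 0.12), and the ligand Nrg4 was lower (-0.79 ± 0.14, adjusted p = 0.00028).

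In the insulin-like growth factor system, 6 of 13 genes were higher in LP (46.2%, against 6.42% of all genes). None was lower, and the median log2 difference was 0.50. The receptor Igf1r read 9.23 to 10.46 in LP and 7.99 to 9.54 in ML (2.59-fold, 1.37 ± 0.20, adjusted p = 1.86e-05), and the adaptor Irs2 was 2.30-fold higher (adjusted p = 0.0012). The binding protein gene Igfbp6 was higher by 1.67 ± 0.29 and Igfbp4 by 1.33 ± 0.31, with stromal means of 14.25 and 14.36. Igfbp4 read 10.16, 9.71, 11.61, 12.45 and 9.11 in LP, high on the LP arrays with endothelial markers, and 8.60 to 9.87 in ML. Without pools 3 and 4 its difference was 0.89 (adjusted p = 0.019).

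The transforming growth factor and bone morphogenetic protein genes numbered 23, with 4 higher in LP and 3 lower (17.4% and 13%, against 6.42% and 4.67% of all genes). Tgfb2 (1.55 ± 0.22, adjusted p = 1.71e-05) and Tgfb3 (1.34 ± 0.21, adjusted p = 4.48e-05), ligands of the family, were higher, each with ML array 4 above its LP partner. The type 1 receptor Bmpr1b read 7.01, 7.57, 7.89, 8.12 and 8.17 in LP and 8.79, 9.43, 9.46, 8.81 and 9.20 in ML, 3.08-fold lower in LP (-1.62 ± 0.20, adjusted p = 2.32e-06) and without overlap. It thus ran with Bmp3, described above.

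Transcription factors of the ETS and SOX families differed in a few members. Of 18 ETS factors, Elf5, Ets1 (0.91 ± 0.24, adjusted p = 0.0057) and Elf4 (0.83 ± 0.26, adjusted p = 0.022) were higher in LP and Spdef was lower. The shares were 16.7% higher and 5.56% lower, against 6.42% and 4.67% of all genes. The call of Elf4 ended without any of LP arrays 2 and 3 and ML arrays 1, 2 and 3 (highest adjusted p = 0.12), and both Ets1 and Elf4 lost theirs without pools 3 and 4 (adjusted p = 0.13 and 0.24). Spdef, a factor of secretory epithelia, read 5.97, 6.25, 7.12, 7.29 and 6.85 in LP and 7.95, 7.75, 8.28, 7.71 and 8.28 in ML, 2.81-fold lower in LP without overlap (adjusted p = 4.43e-06). Of 13 SOX factors, Sox5 (1.95 ± 0.30, adjusted p = 3.75e-05) and Sox10 (1.66 ± 0.31, adjusted p = 0.00030) were higher and Sox12 (-0.81 ± 0.17, adjusted p = 0.0012) lower. For this list the shares were 15.4% higher and 7.69% lower. Sox10, known from the neural crest, read 12.22 to 13.03 in LP and 10.55 to 10.96 on 4 ML arrays, with 12.68 on ML array 4. The call of Sox12, which was higher in LP within pool 4, ended without array weights (adjusted p = 0.067).

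Among smaller pathways, the vitamin D receptor Vdr was higher in LP (1.10 ± 0.29, adjusted p = 0.0066) along with its target Cyp24a1. Vdr read 10.10 to 11.27 in LP and 9.07 to 11.45 in ML, the last on ML array 4, and its call ended without ML array 2 (adjusted p = 0.057). Tph1, the rate-limiting enzyme of serotonin synthesis in the periphery, read 10.34, 10.05, 10.32, 9.54 and 10.93 in LP and 12.21, 11.55, 11.95, 11.08 and 12.58 in ML, 3.01-fold lower in LP without overlap (-1.59 ± 0.30, adjusted p = 0.00036). Of 16 retinoid genes, 2 were higher and 2 lower (12.5% each way, against 6.42% and 4.67% of all genes), among them Crabp2, a carrier of retinoic acid, at 9.57 to 10.63 in LP and 8.30 to 10.71 in ML (1.40 ± 0.32, adjusted p = 0.0022). In pool 4 its LP array read 9.57 and its ML array 10.71, and without array weights the call ended (1.04, adjusted p = 0.057).

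In lipid metabolism, 5 of 27 genes were higher in LP and 2 lower (18.5% and 7.41%, against 6.42% and 4.67% of all genes). Lpl, the lipase that frees fatty acids from lipoproteins, read 11.41 to 12.26 in LP and 9.48 to 12.40 in ML (3.02-fold higher in LP, adjusted p = 0.0019), against a stromal mean of 14.9, and Dgat2, which forms triglyceride, was lower in every pool (2.30-fold, adjusted p = 0.0014). Of 13 tight junction genes, the claudin Cldn1 was higher (1.72 ± 0.31, adjusted p = 0.00021) and the claudins Cldn6 and Cldn10 lower. The share higher, 7.69%, was near the 6.42% of all genes, and 15.4% were lower, against 4.67%. Cldn6 read 10.21, 10.01, 10.64, 10.56 and 10.44 in LP and 11.88, 11.80, 11.88, 10.87 and 12.17 in ML, without overlap (2.80-fold, adjusted p = 0.0019). Cldn10 was lower in LP (-0.74 ± 0.21, adjusted p = 0.012), a call that ended without any of LP array 3 and ML arrays 1 and 2 (highest adjusted p = 0.059). The call also ended when the kept probes of Cldn10 were averaged. Among 19 immediate early genes, Fosl2, Egr3 and Btg2 were higher in LP (15.8%, against 6.42% of all genes) and none was lower. Fosl2, a subunit of AP-1, read 13.20 to 13.50 in LP and 11.40 to 13.15 in ML (1.45 ± 0.19, adjusted p = 5.63e-06). The others of the list, such as Fos at a mean of 14.5 in both populations, were not called.

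Several lists held no called gene in either direction in the limma fit. These were 19 genes of the cell cycle (median log2 difference -0.17), 21 of oxidative phosphorylation (-0.12), 17 of homologous recombination and the Fanconi pathway (-0.17) and 15 of antigen presentation (-0.01). Of 19 genes of protein folding in the endoplasmic reticulum, Hyou1 alone was called (-1.02 ± 0.28, adjusted p = 0.0076), and not without LP array 1 (adjusted p = 0.071). Its share of that list, 5.26%, was near the 4.67% of all genes lower in LP. In the suppressor and receptor genes around prolactin signaling, beside RANK and its ligand, Socs2 was lower (-0.71 ± 0.24, adjusted p = 0.032) and Ghr, the growth hormone receptor, higher (0.63 ± 0.19, adjusted p = 0.018). Without LP array 1, the adjusted p was 0.21 for Socs2 and 0.12 for Ghr, and each call also ended without LP array 5, ML array 2 or ML array 3.

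**Figure D5:**
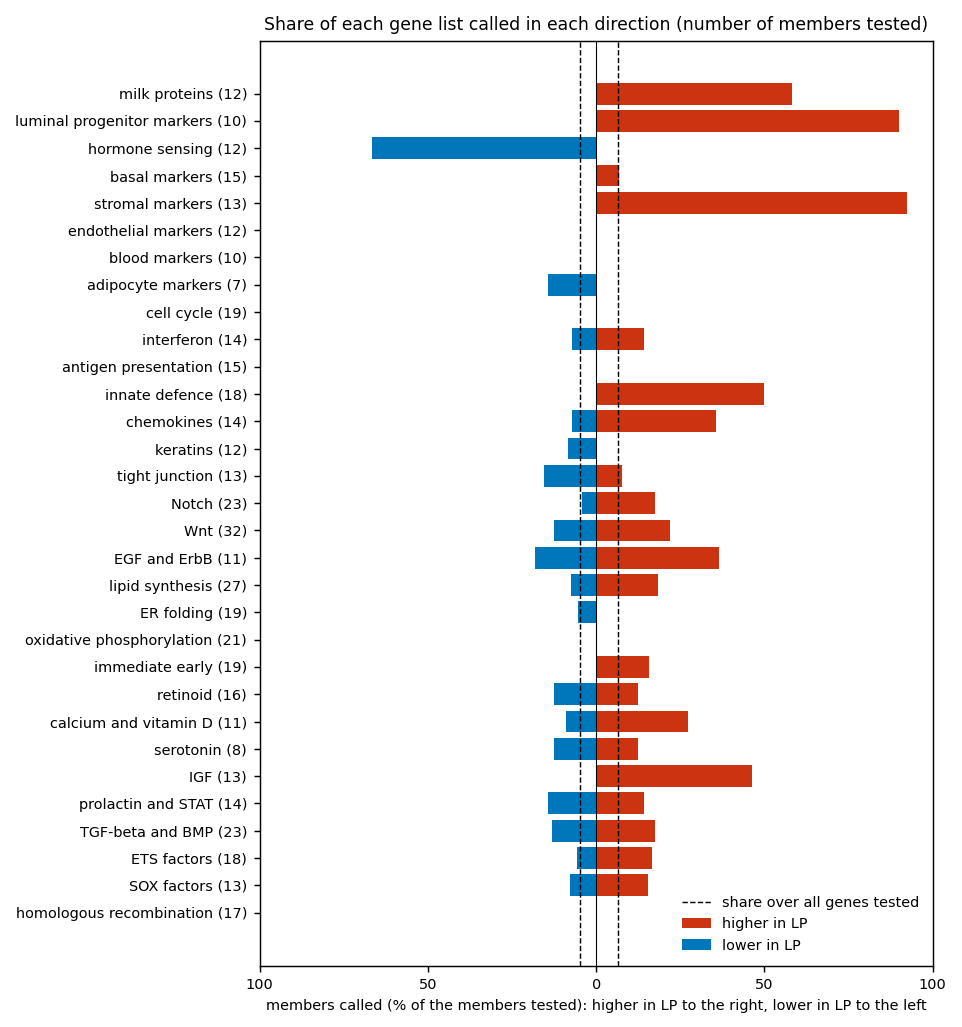
Share of the tested members of 31 gene lists (%) that were called higher in LP (red, to the right) or lower in LP (blue, to the left), with the number tested in parentheses. Dashed lines mark the shares over all 16319 genes, 6.42% higher and 4.67% lower. The luminal progenitor markers (90.0%), stromal markers (92.3%) and milk proteins (58.3%) reach farthest to the right, and the hormone-sensing genes (66.7%) farthest to the left.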

How the data were processed

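Labelled cRNA, made from RNA of the sorted fractions that had not been amplified beforehand, was hybridized to Illumina MouseWG-6 v2 BeadChips, 18 arrays in all. The authors summarised the intensity of each probe in BeadStudio and corrected, quantile normalized and log2 transformed it with the neqc function of limma, and these deposited log2 values were used as they stand. The 18 signal columns of a further table are headed by running numbers that name no sample and were not used.

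Probes above the level of 1506 olfactory and vomeronasal receptor probes on at least 1 array were kept (35585 of 45281). Symbols came from the platform annotation, updated through gene identifiers to RefSeq GRCm38.p6. 34885 probes had 1 symbol, 18 had several and 10378 had none. A gene was read from its brightest kept probe. Other kept probes of a gene were not always called. For example, 1 of 2 was called for Pdgfra, Esrrb, Slc16a5, Saa1 and Egr3, and 1 of 3 for Fosl2. One model with a mean per subpopulation was fitted to all 18 arrays (limma 3.58.1, statmod 1.5.0, R 4.3.3), each array weighted by its quality and pools treated as a random effect (estimated correlation 0.263). Benjamini-Hochberg adjustment ran over all kept probes and 6 contrasts, and a call needed an adjusted p under 0.05 and a fold over 1.5. The fit was also run on simulated data in which all arrays had equal quality. That run does not bear on the weighting of arrays by quality, and no result given here rests on it. An "at least" fold sets the bright group's mean against the lowest level above background on each dim array. The number of arrays limits the precision.

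The labels pair the arrays by pool. Deviations of LP and ML arrays from their group means correlated at 0.417 to 0.526 within a pool, and at a median of -0.221 between pools. In 4 pools the LP array correlated best with its own ML array. In the remaining pool it correlated better with the ML array of another pool. Taking deviations from group means by itself lowers the values between pools, so their negative median gives no separate support for the pairing.

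Members and gene lists were chosen with earlier results of these data known. Genes named are those the study discusses, the 15 largest rises and falls that went the same way in all pools, and up to 4 called members of each list. Adipoq, Csn1s1, Csn2, Glycam1, Krt8, Fos, Tlr2, Tlr4, Pigr, Numb, Dcn, Saa2, Hba-a1 and Lyz2 were named after their values were seen, and so were the skeletal muscle list and the fits without pools.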

Additional observations from a re-analysis of the deposited data

Results flagged for a closer look

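In 17 of 262 groups of 5 arrays tested, the highest or lowest array lay far from the other 4. Chance flags about 1 in 20 such groups. Of these, 11 were ML array 4, 3 were LP array 4, 2 were ML array 5 and 1 was LP array 5.

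ML array 4 was flagged as the highest ML array for 8 genes: Xdh (11.74, against 8.75 to 9.48 on the other ML arrays), Wnt5b (10.65, against 8.88 to 9.33), Lgr6 (8.80, against 6.29 to 6.95), the fatty acid desaturase Scd1 (13.4, against 11.92 to 12.28), the immediate early factor Egr3 (12.47, against 10.71 to 11.13), the receptor RANK (Tnfrsf11a, 9.08, against 6.65 to 7.27), the betaglycan gene Tgfbr3 (9.44, against 7.35 to 7.84) and Sox10 (12.68, against 10.55 to 10.96). It was also the highest ML array for other genes, among them Kit, Elf5 and Wap, with gaps too small to be flagged. The mean of the basal markers was also highest there (8.77, against 7.96 to 8.15). The same array was flagged as the lowest for Cited1 (11.52, against 12.88 to 13.02) and the claudin Cldn6 (10.87, against 11.8 to 12.17).

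LP array 4 was flagged as the highest LP array for the calcium pump of muscle Atp2a1 (8.37, against 5.89 to 6.49) and for Ptprc (5.51, against 4.85 to 4.97), and as the lowest for the monoamine oxidase Maob (4.86, against at least 6.83 on the other LP arrays). ML array 5 was the highest ML array for Pkib (6.05, against 4.88 to 5.14) and the lowest for Dpt (5.59, against 7.68 to 8.41). LP array 5 was the lowest LP array for Notch1 (10.79, against 11.65 to 11.98). Each of these is a value of 1 array, and its cause was not tested.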

How the results depend on the processing

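The fit gave 1828 probes higher and 1390 lower in LP. With pool as a fixed block there were 2006 and 1630, and with no replicate block 1487 and 1072. Leaving out 1 array gave 1562 to 1971 higher and 1178 to 1560 lower. Pools 4 and 5 alone (2 arrays a group) gave 12 and 1, and testing the fold of 1.5 itself (treat) gave 614 and 144, 81.0% of them higher. The other settings moved neither count by over 1.5 times. Without pools 3 and 4, chosen after seeing the data, there were 2128 and 1848.

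Of the 111 named genes called, none changed direction under any setting run, except Atp2b1 (-0.32) and Maob (-0.31) in pools 4 and 5 alone. Directions of genes near 0 that were not called did turn. Itgb3 was -0.15 in pools 4 and 5 alone. Itgb1 was 0.054 without array weights, 0.034 with batch as a term, 0.050 with BeadChip as a block, 0.46 in pools 4 and 5 alone, 0.045 under cyclic loess and -0.13 to 0.056 without single arrays. Cd24a was 0.0068 under cyclic loess, 0.049 without pools 3 and 4 and -0.26 to 0.078 without single arrays. Epcam was -0.14 without weights, -0.18 in pools 1 to 3 alone, -0.076 in pools 4 and 5 alone, -0.011 with the stricter filter, -0.065 without pool 4 and -0.34 to 0.26 without single arrays. Without pools 3 and 4, Notch4 was -0.35 and the endothelial marker Pecam1 -0.66, and without single arrays they ranged over -0.16 to 0.77 and -0.45 to 0.89. Ptprc was 0.11 without weights, 0.43 in pools 4 and 5 alone and -0.11 to 0.15 without single arrays, and was not tested under the stricter filter. The cause was not tested.

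Without array weights, 19 of these 111 calls ended: Aldh1a3, Atp2b1, Cd14, Crabp2, Cxcl2, Elf5, Erbb2, Errfi1, Irf7, Kit, Lpin1, Maob, S100a8, Scd1, Snai2, Socs2, Sox12, Wap and Wnt7b. In pools 4 and 5 alone 105 ended, under treat 51, and in the 10 LP and ML arrays alone 15. Averaging the kept probes of each gene ended 7: Cldn10, Elf4, Ghr, Lipe, Maob, Sox12 and Stim1. Of the 111, 81 kept the call without each array in turn. A signal near background bounds a difference from below. Whether the top of the scale limited the differences of the caseins was not tested.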
